A study of Mus musculus with 2 samples.

Results

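Mast cells of imiquimod-treated mouse back skin were taken from 2 single-cell RNA libraries, 1 of Chrna5 knockout (KO) and 1 of wild-type (WT) mice. A cell barcode was counted as a mast cell when it held at least 3 UMIs (unique molecular identifiers, each standing for 1 captured RNA molecule) of the mast cell protease genes Cpa3, Mcpt4, Tpsb2 and Cma1 together, with at least 2 of these 4 genes detected. The keratinocyte genes Krt5 and Krt14 had to make up less than 0.5% of its UMIs. This rule found 62 cells among 10233 kept KO barcodes and 97 among 13938 kept WT barcodes, 159 of 24171 in all. The cells were thus chosen by the levels of the 4 protease genes and the 2 keratin genes, so their values are a description of the choice and not a result.

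Both groups were female mice aged 6 to 8 weeks that received 62.5 mg of 5% imiquimod cream on the shaved back on 6 days, with the skin taken on day 7. The KO mice carry a knockout of Chrna5, the gene of a nicotinic acetylcholine receptor subunit, with no Cre or promoter named in the labels, and had been backcrossed to C57BL/6N. The WT mice carry no stated allele, and the labels name both C57BL/6N and C57BL/6J as the substrain. Imiquimod activates Toll-like receptor 7 and causes a psoriasis-like inflammation. Collagenase-digested skin was sorted for cells negative for the viability dye SytoxBlue. Each treated group had 5 mice per the labels, and the labels do not say how many of them went into a library. With 1 library per genotype there is no replicate, so every KO against WT difference is one between these 2 libraries, and no test is given. Intervals are 95% intervals of counting error only, and cells are not replicates.

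Mast cells are tissue-resident immune cells that develop from bone marrow precursors and depend on stem cell factor acting through the receptor Kit. They store histamine, heparin and proteases in granules and release them when antigen crosslinks IgE on the high-affinity receptor FceRI, or when basic peptides and drugs bind receptors of the Mrgpr family. Mast cells of skin are of the connective tissue type, which carries chymases, tryptases and carboxypeptidase A3.

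Carboxypeptidase A3 (Cpa3), mast cell protease 4 (Mcpt4, a chymase) and the chymase Cma1 are shown by the 250 bases before their start sites, because these are the genes that define the cells. The sequences are from RefSeq (GRCm38.p6), 5′ to 3′ on the strand of the gene, with the GATA factor motif GATAA in capitals, or TTATC where it lies on the opposite strand.
The windows are chr3:20242182-20242431 for Cpa3, chr14:56062311-56062560 for Mcpt4 and chr14:55944676-55944925 for Cma1, all on the minus strand.
Cpa3: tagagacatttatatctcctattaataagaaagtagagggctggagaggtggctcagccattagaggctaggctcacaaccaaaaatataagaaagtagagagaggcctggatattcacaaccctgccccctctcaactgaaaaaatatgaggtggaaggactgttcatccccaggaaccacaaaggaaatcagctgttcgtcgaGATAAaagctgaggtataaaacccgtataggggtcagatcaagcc
Mcpt4: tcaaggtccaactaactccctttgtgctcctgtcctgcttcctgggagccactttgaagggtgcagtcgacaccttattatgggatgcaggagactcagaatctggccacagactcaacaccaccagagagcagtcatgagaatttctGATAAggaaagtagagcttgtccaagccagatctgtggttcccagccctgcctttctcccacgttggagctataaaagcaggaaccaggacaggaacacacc
Cma1: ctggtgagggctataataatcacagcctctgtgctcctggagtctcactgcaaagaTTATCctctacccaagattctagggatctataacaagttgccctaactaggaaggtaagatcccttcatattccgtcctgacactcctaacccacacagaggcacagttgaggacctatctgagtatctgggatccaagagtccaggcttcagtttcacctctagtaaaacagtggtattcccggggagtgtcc

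Each of these 3 promoters held 1 copy of GATAA on either strand. It began 45 bases before the start of Cpa3, 102 bases before that of Mcpt4 and 194 bases before that of Cma1. Over all promoters in the table the motif was present in 7418 of 32851 windows of this length (22.6%). The motif CATGTG, an E-box bound by Mitf, was in none of the 3 and in 12.3% of all promoters. A motif match describes these letters and is not a binding site. Tpsb2 is named only.

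The 2 libraries held 10886 KO and 14557 WT barcodes, with 123839924 and 147260653 UMIs. Kept barcodes had a median of 6374 UMIs in KO and 4603 UMIs in WT. The libraries shared 49 barcodes as deposited, and none of them was a mast cell. Chrna5 had no UMI in mast cells of either genotype, and 6 UMIs in KO and 12 UMIs in WT over all other kept barcodes, too few to check the knockout. Kept barcodes differed in keratin content, with a median of 0.0267% of UMIs from Krt5 and Krt14 in KO and 0.292% in WT. The keratin limit passed 91.1% of KO and 70.6% of WT barcodes.

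Mast cells were shallow. KO mast cells ranged from 516 to 21729 UMIs with a median of 1441.5, and WT mast cells from 517 to 43315 UMIs with a median of 1649. Under 1000 UMIs were 23 cells of each library. Cells in which the proteases made up at least 0.5% of UMIs are called marker-rich here, a limit chosen after the data were seen. They numbered 46 of 62 in KO and 51 of 97 in WT. The other 16 KO and 46 WT cells are called marker-poor, and they held 59.1% of the UMIs of KO mast cells and 62% of those of WT mast cells. Marker-rich cells had a median of 1012.5 UMIs in KO and 1021 UMIs in WT, and marker-poor cells 5724 UMIs in KO and 2828 UMIs in WT. A cell with few protease UMIs passes the limit of 0.5% only when it is shallow.

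**Figure D1:**
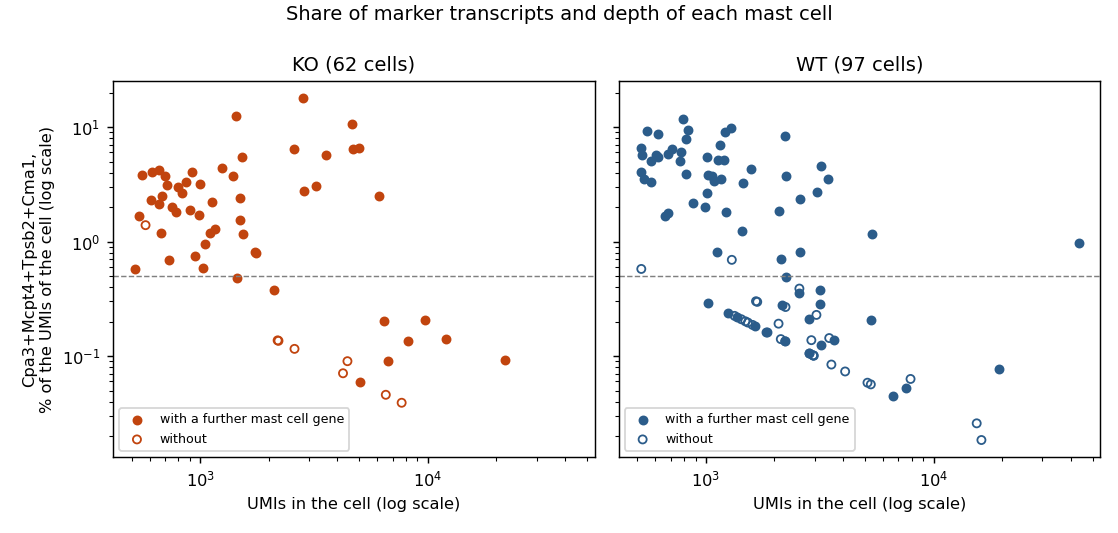
Share of Cpa3, Mcpt4, Tpsb2 and Cma1 in the UMIs of each mast cell (y axis, %, log scale) against the UMIs of the cell (x axis, log scale), for KO (left) and WT (right). Each point is 1 cell, filled if it held a UMI of 1 of 8 further mast cell genes, and the dashed line is at 0.5%. Above the line lie 46 KO and 51 WT cells, of which 45 KO and 49 WT cells are filled.

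Of 14 further mast cell genes that the rule did not use, 8 that are low outside mast cells were used to check the label. These were Kit, the FceRI chains Fcer1a and Ms4a2, the receptors Mrgprb1 and Mrgprb2, the histamine-forming enzyme Hdc, the transcription factor Gata2 and the vesicular monoamine transporter Slc18a2. At least 1 UMI of these genes was found in 45 of 46 marker-rich KO cells and in 49 of 51 marker-rich WT cells. Among marker-poor cells the same held for 9 of 16 in KO and 20 of 46 in WT. Among all other kept barcodes it held for 5.40% in KO and 4.0% in WT, at median depths of 6399 and 4670 UMIs. Low values there are part of the choice of the 8 genes and not a result. Tpsab1 was not among the 8, although it was also rare there, in 0.0295% of KO and 0.0867% of WT barcodes. Of the genes left out, Cd63 was in 69.6% of KO and 51.0% of WT marker-rich cells. It was in 81.0% and 74.6% of all other barcodes, while the others left out were found in a larger share of marker-rich cells. The 8 genes summed to 7497 CPM (UMIs per 1000000 UMIs of the same cells) in marker-rich KO cells and 3436 CPM in marker-rich WT cells. Marker-poor cells had 388 CPM in KO and 192 CPM in WT, and all other barcodes 7.99 and 6.73 CPM. A larger share of marker-rich than of marker-poor cells thus carried these genes in both libraries, although marker-rich cells were shallower. None of the 8 genes was found in 7 of 16 marker-poor KO cells and 26 of 46 marker-poor WT cells. For marker-poor cells, which are the deeper ones, the name mast cell thus rests for many on the rule alone.

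Genes of neighbouring cell types were read in the same cells. Of 10 basophil genes 7 were detected in mast cells of each library, among them the rule gene Cpa3 and the mast cell genes Hdc, Gata2 and Fcer1a, while the basophil proteases Mcpt8 and Prss34 and the receptor Ccr3 were at 0. Of 4 mucosal mast cell genes, Mcpt1 and Itgae were at 0 in both, Cma2 had 3 UMIs in KO and 2 in WT, and Mcpt2 had 1 UMI in KO. The 8 eosinophil genes were at 0 in marker-rich cells of both libraries, and 10 T cell genes summed to 0 CPM in marker-rich KO cells and 18.5 CPM in marker-rich WT cells. In marker-poor cells the eosinophil genes had 10 UMIs in KO, all of 1 gene, and 0 in WT. Melanocyte genes (5 of 7 detected) had 54 UMIs in marker-poor KO cells, at 523 CPM against 16.9 CPM in all other KO barcodes. They had 5 UMIs in marker-poor WT cells, and 0 UMIs in KO and 6 UMIs in WT marker-rich cells.

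Neutrophil genes (2 of 10 detected in each) summed to 42.0 CPM in marker-rich KO cells and 2217 CPM in marker-rich WT cells, with Retnlg, Csf3r, Mmp9, Ly6g, Camp, Ltf and Ngp at 0 in both. Marker-poor cells had 116 CPM of them in KO and 11846 CPM in WT, and all other barcodes 368 CPM in KO and 9764 CPM in WT. Keratinocyte genes (11 of 12 detected in each, without Krt15 in KO and Lor in WT) summed to 587 CPM in marker-rich KO cells and 5117 CPM in marker-rich WT cells. They summed to 2461 CPM in marker-poor KO cells and 8067 CPM in marker-poor WT cells, against 11475 CPM in all other KO barcodes and 15896 CPM in all other WT barcodes. Neutrophil and keratinocyte transcripts were thus higher in WT than in KO both in mast cells and around them.

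Fibroblast genes (8 of 10 detected in KO and 9 in WT) summed to 937 CPM in marker-rich KO cells and 2752 CPM in marker-rich WT cells. In marker-poor cells they summed to 2868 CPM in KO and 2189 CPM in WT, and in all other barcodes to 2451 CPM in KO and 2355 CPM in WT. Macrophage genes (11 of 12 detected in KO and 10 in WT) summed to 3679 CPM in marker-rich KO cells and 5311 CPM in marker-rich WT cells. In marker-poor cells they reached 8305 CPM in KO and 7468 CPM in WT, against 7683 CPM in all other KO barcodes and 6899 CPM in all other WT barcodes. Without the deepest marker-rich cell of each library their order turned, at 3684 CPM in KO and 2063 CPM in WT. Marker-poor cells thus carried neutrophil, fibroblast and macrophage genes at about the level of other barcodes in WT, and every ratio over all mast cells includes them. The part of these transcripts in the differences between KO and WT was not tested. No doublet caller was run, and an alternative without cells that carried another lineage's genes is among the settings of the closing section. That setting left out only 2 KO and 3 WT cells and had no criterion for neutrophil genes, so most of these transcripts stayed in it.

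Mast cells made up 0.606% of kept KO barcodes (0.465 to 0.776) and 0.696% of kept WT barcodes (0.565 to 0.848). Marker-rich cells made up 0.450% in KO (0.329 to 0.599) and 0.366% in WT (0.273 to 0.481). The order of the libraries thus turned with the marker limit, and all these intervals overlap between genotypes. Among barcodes with a UMI of the pan-leukocyte gene Ptprc, mast cells were 30 of 1286 in KO (2.33%, 1.58 to 3.31) and 21 of 1345 in WT (1.56%, 0.969 to 2.38). This share counts only mast cells with a Ptprc UMI, which were 48.4% of the 62 KO and 21.6% of the 97 WT mast cells. Without the keratin limit the shares were 0.616% in KO and 0.918% in WT. At the edge of the rule, 8 KO and 26 WT cells had exactly 3 protease UMIs, of which 2 and 9 held one of the 8 further genes. Just outside it, 2 KO and 37 WT barcodes had 2 UMIs of 2 proteases, of which 0 and 4 did. A further 2 KO and 13 WT barcodes had 3 or more UMIs of a single protease, and 1 and 6 of them held one of the 8 genes.

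A single deep barcode weighed on each library. The deepest KO mast cell had 21729 UMIs, of which 20 were from the 4 proteases. The deepest WT mast cell had 43315 UMIs, 423 of them from the proteases, and held 40.0% of all UMIs of marker-rich WT cells. The next deepest WT cell had 15 protease UMIs among 19403 and neutrophil genes at 64165 CPM. The one after it had 3 protease UMIs among 16218 and macrophage genes at 22506 CPM. The deepest KO mast cell was marker-poor. The deepest marker-rich KO cell was another one, with 6078 UMIs, 152 of them from the proteases, and held 8.50% of all UMIs of marker-rich KO cells. Values are given for all mast cells and again for marker-rich cells without the deepest marker-rich cell of each library, called core cells here. There were 45 core cells in KO with 65413 UMIs and 50 in WT with 64960 UMIs, at medians of 999 and 1017 UMIs. All mast cells together held 174684 UMIs in KO and 285037 UMIs in WT, so core cells were a larger part of them in KO. A gene confined to core cells therefore has a higher KO over WT ratio over all mast cells than in core cells. That choice was also made after the data were seen.

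Over all mast cells 3198 genes had at least 20 UMIs in the 2 libraries together. Of these, 323 (10.1%) were at least 2-fold higher and 264 (8.26%) at least 2-fold lower in KO. The balance turned with the scaling, with 399 higher and 499 lower by a mean of per-cell CPM and 275 higher and 312 lower by median-ratio scaling. Over core cells 1094 genes were measured, of which 143 (13.1%) were higher and 100 (9.14%) lower. The median log2 ratio of KO over WT was 0.07 over all mast cells and 0.13 over core cells. Counts of gene lists below carry these shares of all genes in brackets, and a count near them is no result about the list.

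Granule proteases are the major stored proteins of mast cells. Of 15 listed, 10 were detected and 7 measured. Cpa3 had 4940.4 CPM in KO and 2017 CPM in WT, Mcpt4 9709 CPM in KO and 4501 CPM in WT, and Tpsb2, a tryptase, 1008 CPM in KO and 705 CPM in WT. Cma1 had 3893 CPM in KO and 3807 CPM in WT. As genes of the rule these 4 are description only. In core cells Mcpt4 had 24139 CPM in KO and 15902 CPM in WT, while Cma1 had 9539 CPM in KO and 13208 CPM in WT. The positions are chromosome 3, 20215620 to 20242181 for Cpa3, and chromosome 14, 56059629 to 56062313 for Mcpt4 and 55941451 to 55944675 for Cma1 (mm10, minus strand).

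**Figure D2:**
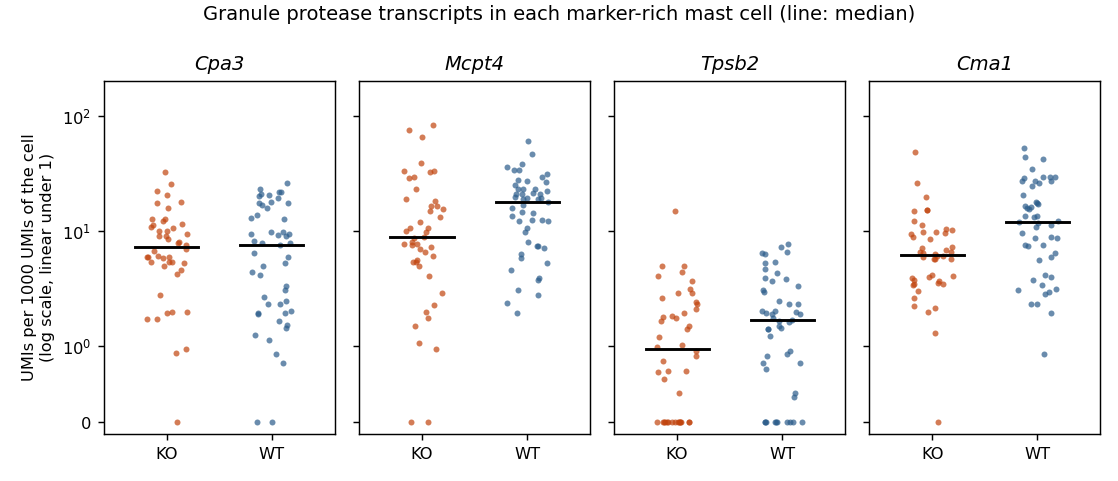
UMIs of Cpa3, Mcpt4, Tpsb2 and Cma1 per 1000 UMIs (y axis, log scale, linear under 1) in each marker-rich cell, KO left of WT; each point is 1 cell and each line the median over 46 KO or 51 WT cells. Median Mcpt4 lies at 8.76 in KO and 17.7 in WT, and median Cma1 at 6.15 in KO and 11.8 in WT.

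Single cells varied widely in these genes. The 4 proteases together ranged from 5.81 to 179 per 1000 UMIs in marker-rich KO cells with a median of 25, and from 5.77 to 118 in marker-rich WT cells with a median of 38.2. Mcpt4 was higher in KO as a sum over cells, yet its median per cell was 8.76 per 1000 UMIs in KO and 17.7 in WT. The most Mcpt4 UMIs in 1 KO cell were 300, which was 17.7% of all Mcpt4 UMIs of KO mast cells. Median Cpa3 was 7.2 in KO and 7.48 in WT.

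The other tryptases were sparse. Tpsab1, which encodes another mast cell tryptase and lies beside Tpsb2 on chromosome 17, had 8 UMIs in 5 KO cells and 24 UMIs in 15 WT cells, a ratio of 0.544 (0.211 to 1.25). Tpsg1, a membrane-anchored tryptase, had 12 UMIs in KO and 18 in WT. Near-identical tryptase copies can share reads, so the division between Tpsb2 and Tpsab1 is uncertain. Over all mast cells, 2 of the 7 measured proteases were 2-fold or more higher in KO and none lower (10.1% and 8.26% of all genes). Both, Cpa3 and Mcpt4, are genes of the rule. Over core cells none was higher and 2 were lower (13.1% and 9.14% of all genes). These 2 were Tpsab1 and Gzmb, the gene of granzyme B.

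Storage of amines and proteases in granules depends on heparin-carrying serglycin. Serglycin (Srgn) had 2198 CPM in KO and 1049 CPM in WT, a ratio of 2.10 (1.80 to 2.45), and 1.44 (1.20 to 1.72) in core cells. Srgn is shared with other leukocytes, with 853 CPM in KO and 666 CPM in WT barcodes of a macrophage gate set by C1q genes, Pf4 and Mrc1. In a T cell gate set by T cell receptor genes it had 2603 CPM in KO and 2407 CPM in WT, above the values over all mast cells. Marker-rich cells had 4854 CPM of Srgn in KO and 2364 CPM in WT. The heparan 6-O-sulfotransferase Hs6st2 had 21 UMIs in 17 KO cells and 12 UMIs in 11 WT cells, at under 1 CPM in all other barcodes of either library. Hs3st1, a 3-O-sulfotransferase, had 166 CPM in KO and 137 CPM in WT, a ratio of 1.21 (0.724 to 2.01). Of 4 measured storage genes, 3 were 2-fold or more higher in KO over all mast cells (10.1% of all genes). In core cells 0 of 4 were (13.1% of all genes).

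Histamine is made from histidine by Hdc. Hdc had 212 UMIs in 46 KO cells (1214 CPM) and 128 UMIs in 48 WT cells (449 CPM), against 1.87 and 2.64 CPM in all other barcodes. The ratio was 2.70 (2.16 to 3.39) over all mast cells and 1.48 (1.16 to 1.89) in core cells. After thinning each marker-rich cell to 1000 UMIs, which left out 23 cells of each library, Hdc was detected in 82.6% of 23 KO cells and 60.7% of 28 WT cells. Unthinned it was detected in 89.1% of KO and 80.4% of WT marker-rich cells, at median depths of 1012.5 and 1021 UMIs. In the macrophage gate it was found in 0.814% of KO and 1.09% of WT barcodes, at medians of 6496 and 7395 UMIs.

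Uptake and breakdown of amines were represented by Slc18a2, Slc6a4 and Maob. Slc18a2, which loads histamine and serotonin into granules, had 114 CPM in KO and 80.7 CPM in WT, a ratio of 1.42 (0.739 to 2.70), and 0.851 (0.428 to 1.68) in core cells. The serotonin transporter Slc6a4 had 252 CPM in KO and 102 CPM in WT, a ratio of 2.48 (1.51 to 4.1), and 1.77 (0.962 to 3.34) in core cells. Monoamine oxidase B (Maob), a mitochondrial enzyme that breaks down amines, had 25 UMIs in 15 KO cells and 7 UMIs in 6 WT cells. Its ratio was 5.83 (2.45 to 16.0) over all mast cells and 2.84 (1.15 to 7.94) in core cells. Tph1, the rate-limiting enzyme of serotonin synthesis outside the brain, had 12 UMIs in 5 KO cells and 25 UMIs in 11 WT cells, of which 48.0% came from 1 WT cell. Of 6 measured amine genes, 3 were higher by the 2-fold rule over all mast cells and 0 lower (10.1% and 8.26% of all genes). In core cells Maob was higher and Tph1 lower (13.1% and 9.14% of all genes).

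The IgE receptor FceRI has an IgE-binding alpha chain (Fcer1a), a signal-amplifying beta chain (Ms4a2) and a gamma chain shared with other receptors (Fcer1g). Fcer1a (chromosome 1, 173221284 to 173227214, minus strand, mm10) had 2 UMIs in 2 of 62 KO cells and 32 UMIs in 17 of 97 WT cells, or 11.4 CPM in KO and 112 CPM in WT. The ratio was 0.102 (0.0118 to 0.400) over all mast cells and 0.0552 (0.00132 to 0.349) in core cells, where 1 KO and 12 WT cells held it and its 19 UMIs were under the limit of 20. Ms4a2 lay in the other order, with 189 CPM in KO and 91.2 CPM in WT, a ratio of 2.07 (1.20 to 3.61), and 1.35 (0.755 to 2.46) in core cells. Fcer1g had 956 CPM in KO and 940.2 CPM in WT. Of the 3 chains, the alpha chain alone was 2-fold or more lower in KO over all mast cells.

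The difference in Fcer1a was also read within the same cells. Fcer1a supplied 5.71% of the joint UMIs of Fcer1a and Ms4a2 in KO mast cells (2 of 35 UMIs, 0.700 to 19.2) and 55.2% in WT mast cells (32 of 58 UMIs, 41.5 to 68.3). Among cells with a Kit UMI, Fcer1a was detected in 1 of 34 in KO and 11 of 32 in WT. Among marker-rich cells thinned to 1000 UMIs a UMI of it was found in 0 of 23 in KO (0 to 14.8%) and in 5 of 28 in WT (17.9%, 6.06 to 36.9), intervals that overlap. Among all thinned mast cells it was found in 1 of 39 in KO and 7 of 74 in WT. Barcodes of the macrophage gate held it in 0 of 614 in KO and 2 of 731 in WT. In WT, 1 cell held 28.1% of its UMIs. Both comparisons were chosen after the values of Fcer1a were seen.

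Receptors of the Mrgpr family were higher in KO. Mrgprb2, the mouse receptor for basic secretagogues and many drugs on connective tissue mast cells, had 26 UMIs in 17 KO cells and 4 UMIs in 4 WT cells, or 149 CPM in KO and 14 CPM in WT. Its ratio was 10.6 (3.68 to 41.8) over all mast cells and 11.4 (2.82 to 99.9) in core cells, and 1 KO cell held 11.5% of its UMIs. After thinning it was detected in 5 of 23 marker-rich KO cells (21.7%, 7.46 to 43.7) and 2 of 28 marker-rich WT cells (7.14%, 0.877 to 23.5), intervals that overlap. No barcode of the macrophage gate held it in either library. Mrgprb1, its close relative, had 180 UMIs in 38 KO cells and 88 UMIs in 36 WT cells, or 1030.4 CPM in KO and 309 CPM in WT. The ratio of Mrgprb1 was 3.34 (2.57 to 4.36) over all mast cells and 1.89 (1.43 to 2.51) in core cells. Both genes lie on chromosome 7, Mrgprb1 at 48444113 to 48456342 and Mrgprb2 at 48550965 to 48558086 (mm10, minus strand). As copies of 1 gene family they can share reads, so the split between them is uncertain.

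**Figure D3:**
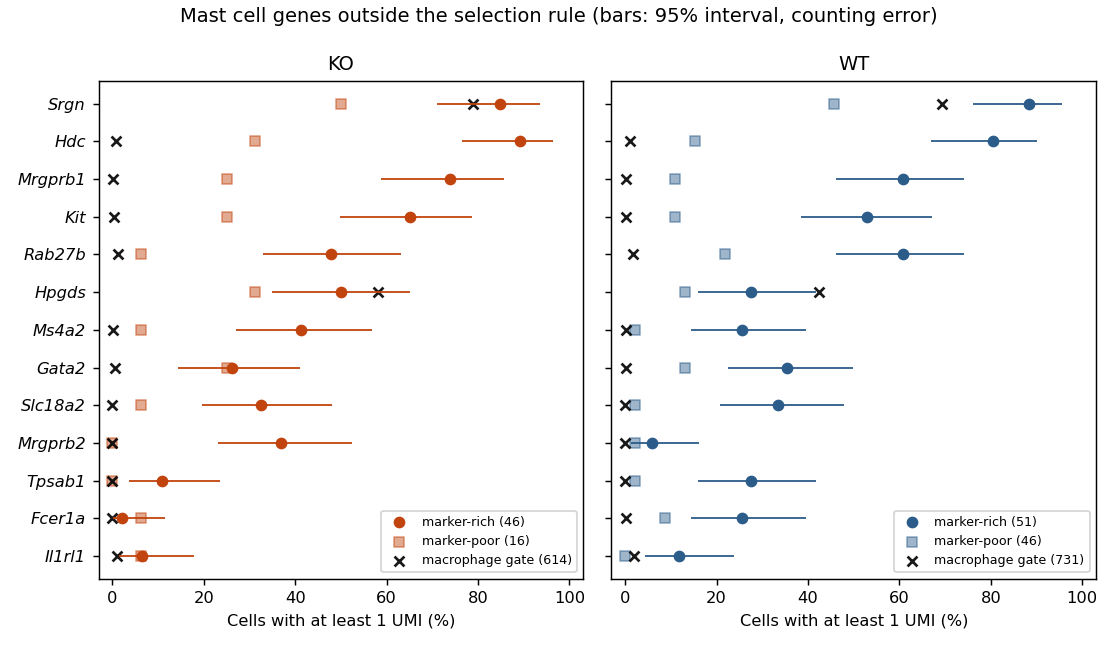
Percent of cells with at least 1 UMI (x axis) of 13 of the 14 further mast cell genes outside the rule, for KO (left) and WT (right), in marker-rich cells (circles, with 95% intervals of counting error), marker-poor cells (squares) and the macrophage gate (crosses). Cd63 is not drawn. It was in 69.6% of KO and 51.0% of WT marker-rich cells, and in 89.7% and 84.1% of the macrophage gate. Fcer1a lies at 2.17% in KO and 25.5% in WT marker-rich cells, Mrgprb2 at 37.0% in KO and 5.88% in WT; Srgn and Hpgds are frequent in macrophages too.

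Growth and survival receptors had ratios nearer 1. Kit, the receptor of stem cell factor, had 429 CPM in KO and 253 CPM in WT, a ratio of 1.70 (1.21 to 2.38), and 1.04 (0.724 to 1.5) in core cells. It was detected in 60.9% of 23 thinned marker-rich KO cells and 60.7% of 28 such WT cells. Csf2rb2, the beta chain of the mouse interleukin 3 receptor, had 624 CPM in KO and 425 CPM in WT, with a ratio of 0.910 (0.686 to 1.21) in core cells. Il1rl1, the receptor of interleukin 33, was at 4 UMIs in KO and 8 UMIs in WT. Of 14 measured surface receptors, 3 were higher and 2 lower over all mast cells (10.1% and 8.26% of all genes). In core cells 1 of 8, Mrgprb2, was higher and none lower (13.1% and 9.14% of all genes). Fcer1a with 19 UMIs was under the limit of 20 there.

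Signalling downstream of FceRI and Kit runs through Src and Syk kinases and adaptor proteins. The adaptor Lat had 17 UMIs in 15 KO cells and 6 UMIs in 6 WT cells, a ratio of 4.62 (1.74 to 14.3), and 4.97 (1.40 to 26.8) in core cells. In core cells the UMIs of Lat were under the limit for a measured gene, so it is not counted there. The related adaptor Lat2 had 195 CPM in KO and 154 CPM in WT, and its ratio in core cells was 0.925 (0.527 to 1.62). The kinase Lyn had 155 CPM in KO and 45.6 CPM in WT, a ratio of 3.39 (1.69 to 7.15), but 1.26 (0.533 to 3.08) in core cells. Spry2, a feedback inhibitor of receptor kinase signalling, had 34 UMIs in 18 KO cells and 25 UMIs in 19 WT cells. Its ratio was 2.22 (1.29 to 3.88) over all mast cells and 3.09 (1.42 to 7.44) in core cells, where 1 KO cell held 35.7% of its UMIs. Spry2 was also higher in KO in all other barcodes, at 98.4 CPM in KO and 57.6 CPM in WT. Of 17 measured signalling genes, 4 were higher and none lower over all mast cells (10.1% and 8.26% of all genes). In core cells 1 of 7, Spry2, was higher (13.1% of all genes). Sla, an adaptor that lowers antigen receptor levels in lymphocytes, was named by its height over other cells. It had 933 CPM in KO and 193 CPM in WT, a ratio of 4.84 (3.54 to 6.69), and 2.71 (1.91 to 3.91) in core cells.

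Transcription factors of the lineage were read next. Gata2, required for mast cell development, had 160.3 CPM in KO and 116 CPM in WT, with ratios of 1.38 (0.806 to 2.36) and, in core cells, 0.993 (0.540 to 1.83). Mitf, which controls Kit and protease genes, had 11 UMIs in KO and 12 in WT. Myb, a progenitor factor, had 126 CPM in KO and 87.7 CPM in WT, with a ratio of 0.703 (0.355 to 1.37) in core cells. Runx1 had 361 CPM in KO and 151 CPM in WT, a ratio of 2.39 (1.6 to 3.61), and 2.71 (1.32 to 5.99) in core cells, but it was also higher in the other barcodes, at 277 CPM in KO and 127 CPM in WT. Of 14 measured factors, 2 were higher and 1 lower over all mast cells (10.1% and 8.26% of all genes). In core cells 1 of 7, Runx1, was higher (13.1% of all genes).

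Lipid mediators are made on activation. Haematopoietic prostaglandin D synthase (Hpgds), which makes the main prostaglandin of mast cells, had 65 UMIs in 28 KO cells and 29 UMIs in 20 WT cells, or 372 CPM in KO and 102 CPM in WT. The ratio was 3.66 (2.33 to 5.88) over all mast cells and 2.56 (1.48 to 4.61) in core cells. Macrophages also express it, with 327 CPM in KO and 162 CPM in WT barcodes of the macrophage gate. Thinned, it was found in 11 of 23 marker-rich KO cells (47.8%) and 9 of 28 WT cells (32.1%). Ptges, a prostaglandin E synthase, had 4 UMIs in KO and 48 UMIs in WT, at 22.9 and 168 CPM, but in all other barcodes it had 82.8 CPM in KO and 170.4 CPM in WT, and marker-rich cells held 2 and 9 UMIs. Of 7 measured eicosanoid genes, 1 was higher and 1 lower over all mast cells (10.1% and 8.26% of all genes).

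Cytokines were sparse. Tnf, which mast cells also store, had 24 UMIs in 15 KO cells and 14 UMIs in 10 WT cells, a ratio of 2.80 (1.39 to 5.85), and 2.81 (1.06 to 8.72) in core cells. In all other barcodes Tnf had 21.7 CPM in KO and 35.8 CPM in WT, in the other order. Il4, a type 2 cytokine, had 10 UMIs in 4 KO cells and 7 UMIs in 6 WT cells. Il6 had 200.4 CPM in KO and 154 CPM in WT, and 1 KO cell held 40.0% of its UMIs. Of 8 measured cytokines, Tnf and Csf1 were higher and Lif and Areg lower over all mast cells (10.1% and 8.26% of all genes).

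Chemokines were mixed. Ccl7, which attracts monocytes, had 1443 CPM in KO and 1102 CPM in WT mast cells against 395 and 412 CPM in all other barcodes, and a ratio of 0.915 (0.735 to 1.14) in core cells. Ccl2 had 1202 CPM in KO and 1782 CPM in WT, a ratio of 0.675 (0.572 to 0.794), and 1 WT cell held 39.0% of its UMIs. Without it, in core cells, the ratio was 0.871 (0.652 to 1.16). Cxcl2, which attracts neutrophils, had 71 UMIs in 10 KO cells and 399 UMIs in 56 WT cells, a ratio of 0.290 (0.222 to 0.375). In core cells it had 229 CPM in KO and 3541 CPM in WT, a ratio of 0.0648 (0.0357 to 0.109), and 1 WT cell held 48.7% of its UMIs there. All other barcodes had 621 CPM of Cxcl2 in KO and 1097 CPM in WT. Of 8 measured chemokines, 2 were higher and 3 lower over all mast cells (10.1% and 8.26% of all genes). In core cells none of 5 was higher while Cxcl1 and Cxcl2 were lower (13.1% and 9.14% of all genes).

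**Figure D4:**
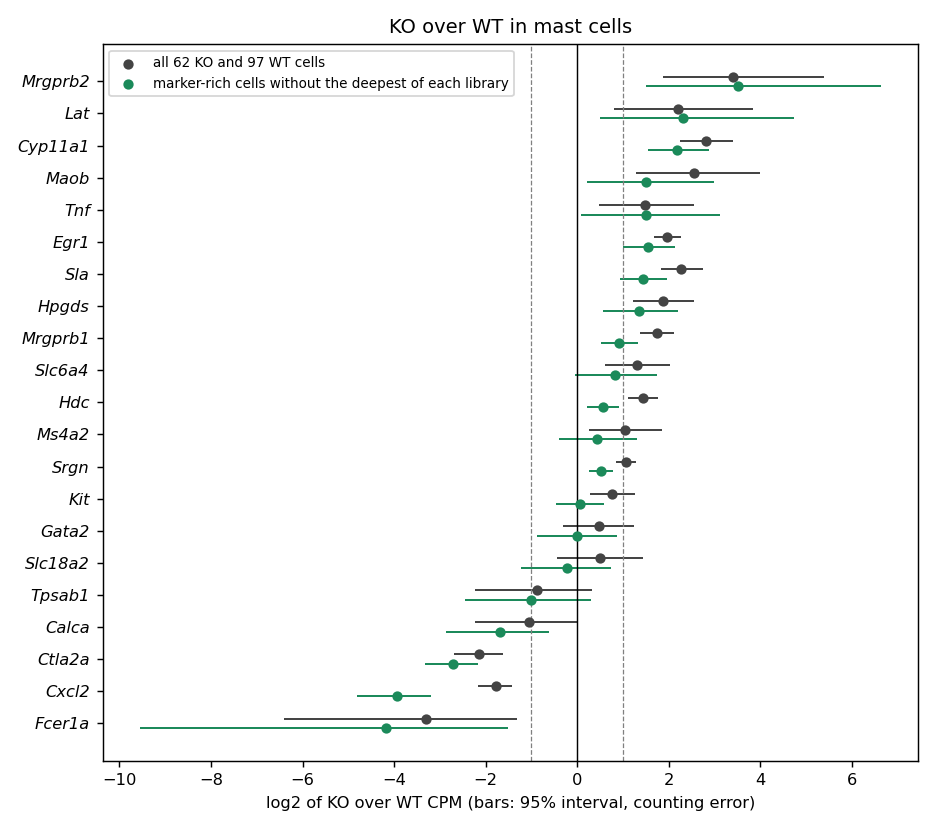
log2 of KO over WT CPM (x axis) of 21 genes of mast cells, with 95% intervals of counting error, over all mast cells (grey) and core cells (green, marker-rich without the deepest of each library). Dashed lines mark 2-fold. Mrgprb2 (ratio 10.6) and Fcer1a (ratio 0.102) stand at the opposite ends over all mast cells, while Kit, Gata2 and Slc18a2 lie near 0 in core cells.

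Beyond the gene lists, Cyp11a1 stood out by its height over other cells. It encodes the side-chain cleavage enzyme that starts steroid hormone synthesis, and lies at chromosome 9, 58006411 to 58027023 (plus strand, mm10). Cyp11a1 had 141 UMIs in 25 KO cells and 33 UMIs in 18 WT cells, or 807 CPM in KO and 116 CPM in WT, against 0.294 and 0.748 CPM in all other barcodes. Its ratio was 6.97 (4.74 to 10.5) over all mast cells and 4.55 (2.91 to 7.40) in core cells. Among cells with a Kit UMI it was detected in 21 of 34 in KO and 10 of 32 in WT, and 1 KO cell held 26.2% of its UMIs. Chrna5 lies on the same chromosome at 54980880 to 55007779.

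Ptprc, Cd53, Tespa1 and Cited2 were named by their KO over WT ratio in core cells, a rule applied there after the data were seen. Ptprc, the pan-leukocyte phosphatase CD45, had 481 CPM in KO and 140.3 CPM in WT, a ratio of 3.43 (2.32 to 5.13), and 2.87 (1.68 to 5.13) in core cells, where 23 KO and 14 WT cells held it. Cd53, a leukocyte tetraspanin, had 464 CPM in KO and 94.7 CPM in WT, with 3.91 (2.19 to 7.41) in core cells. Tespa1, which takes part in antigen receptor signalling in thymocytes, had 38 UMIs in 17 KO cells and 9 UMIs in 6 WT cells, with 5.30 (2.18 to 15.5) in core cells. Cited2, a transcriptional co-regulator, had 870.1 CPM in KO and 232 CPM in WT, with 2.91 (1.89 to 4.60) in core cells. Other leukocyte surface genes were mixed, with ratios over all mast cells of 1.02 for Fcer1g and 0.777 for the inhibitory receptor Fcgr2b. Among inhibitory receptors Cd84 had a ratio of 3.50 (1.34 to 10.1) and Cd47 one of 1.70 (1.13 to 2.55). Of 5 measured inhibitory receptors, 1 was 2-fold or more higher in KO and 0 lower over all mast cells (10.1% and 8.26% of all genes). In core cells 0 of 3 were higher and 0 lower (13.1% and 9.14% of all genes). The 12 macrophage genes also summed higher in KO core cells, and their part in these ratios was not tested.

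Ctla2a, an inhibitor of cysteine proteases, was lower in KO. It had 34 UMIs in 18 KO cells and 244 UMIs in 53 WT cells, or 195 CPM in KO and 856 CPM in WT, a ratio of 0.227 (0.154 to 0.326). In core cells it had 459 CPM in KO and 3017 CPM in WT, a ratio of 0.152 (0.0999 to 0.224), and 1 WT cell held 34.2% of its UMIs. All other barcodes had 294 CPM in KO and 251 CPM in WT, in the other order. Among cells with a Kit UMI, Ctla2a was found in 13 of 34 in KO and 22 of 32 in WT. Calca, the gene of calcitonin and the neuropeptide CGRP, had 10 UMIs in 4 KO cells and 34 UMIs in 12 WT cells, at under 1 CPM in all other barcodes of either library. Its ratio was 0.480 (0.211 to 0.993), and in core cells 0.310 (0.136 to 0.647), with 1 KO cell holding 70.0% of the KO UMIs. Lgals1, a galactose-binding lectin, had 217 CPM in KO and 425 CPM in WT, and in core cells a ratio of 0.350 (0.193 to 0.610).

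Granule and lysosome genes were measured for 17 members. None was 2-fold or more higher and 2, Vamp8 and Stx11, were lower over all mast cells (10.1% and 8.26% of all genes). In core cells 0 of 12 were higher and 2, Lamp1 and Ctsd, were lower (13.1% and 9.14% of all genes). The median log2 ratio there was -0.43. Cd63, a granule membrane tetraspanin, had 967 CPM in KO and 845.5 CPM in WT, a ratio of 1.14 (0.934 to 1.40). Rab27b, a GTPase of granule release, had 37 UMIs in 23 KO cells and 69 UMIs in 41 WT cells, a ratio of 0.875 (0.570 to 1.32), and 0.625 (0.395 to 0.978) in core cells. Vamp8, a fusion protein of secretory granules, had 85.9 CPM in KO and 196 CPM in WT, but also 140 and 173 CPM in all other barcodes.

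Immediate early and heat shock genes, which enzymatic digestion of tissue is known to induce, were read inside and outside mast cells. Egr1, an immediate early gene, had 1849 CPM in KO and 474 CPM in WT, a ratio of 3.90 (3.18 to 4.81), and 2.93 (2.00 to 4.37) in core cells. All other barcodes had 1424 CPM of Egr1 in KO and 473 CPM in WT, so Egr1 was higher in KO outside mast cells too. Hspa5, a chaperone of the endoplasmic reticulum, had 1443 CPM in KO and 639 CPM in WT, against 1232 and 789 CPM in all other barcodes. Of 21 immediate early genes, 4 were higher and 1 lower over all mast cells (10.1% and 8.26% of all genes). In core cells 3 of 16 were higher and none lower (13.1% and 9.14% of all genes). Of 15 heat shock genes, 2 were higher and 2 lower over all mast cells, and in core cells 4 of 12 were higher, against the same shares.

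**Figure D5:**
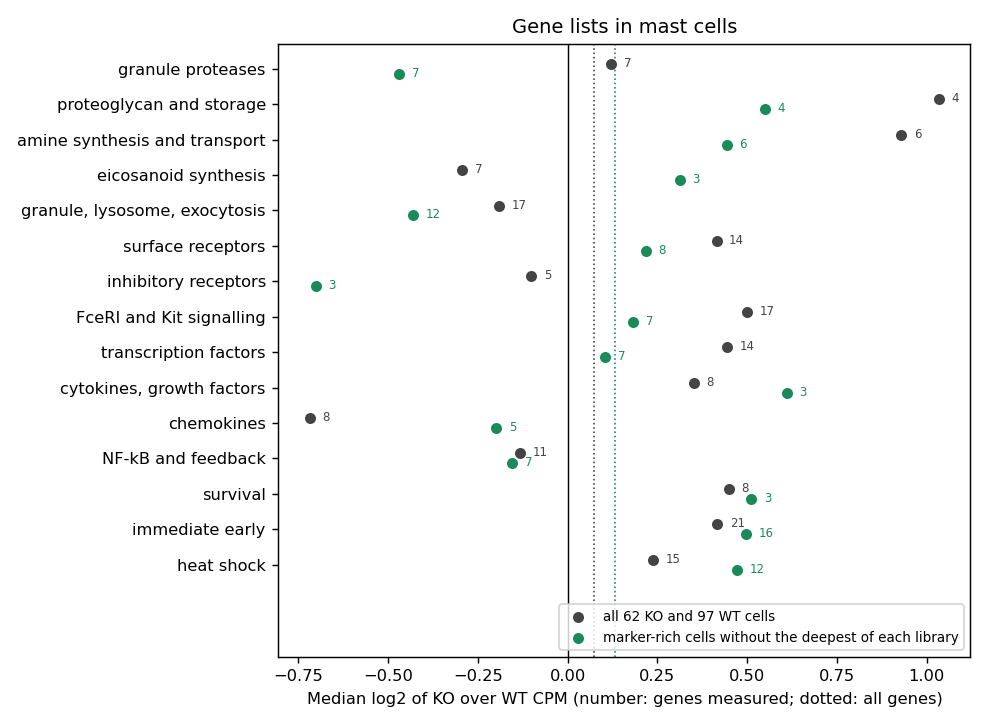
Median log2 of KO over WT CPM (x axis) over the measured genes of 15 lists, over all mast cells (grey) and core cells (green, marker-rich without the deepest of each library). Numbers are genes measured, and dotted lines mark the medians of all genes, 0.07 and 0.13. Granule, lysosome and exocytosis genes lie at -0.19 and -0.43, and proteoglycan and storage genes at 1.03 and 0.55.

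Imiquimod sensing could hardly be read in mast cells. Tlr7 had 0 UMIs in KO and 3 UMIs in WT, both at or under the 3 UMIs that a count of 0 allows. Nlrp3, an inflammasome sensor, had 7 UMIs in 6 KO cells and 26 UMIs in 14 WT cells, a ratio of 0.439 (0.161 to 1.04). Of 24 genes of nicotinic and muscarinic receptors, 1 was detected, at 1 UMI in each library, so acetylcholine receptors were not detectable at this depth.

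Some differences past 2-fold came from 1 barcode. Scd1, a fatty acid desaturase, had 922 CPM in KO and 94.7 CPM in WT, but 88.2% of its KO UMIs came from 1 cell, and marker-rich cells held 5 UMIs in KO and 16 in WT. Wfdc18 had 1 UMI in KO and 85 UMIs in WT, 96.5% of them from 1 WT cell. Stfa3 had 16 UMIs in KO and 402 UMIs in WT, 84.3% of them from 1 WT cell. Saa3, an acute phase gene, had 8 UMIs in KO and 564 UMIs in WT, 60.1% of them from 1 WT cell, and 70.2 CPM in KO and 860 CPM in WT in all other barcodes. The neutrophil gene S100a8 had 28.6 CPM in KO and 4550.3 CPM in WT mast cells, and in all other barcodes 177 CPM in KO and 5049.7 CPM in WT. These genes rested on 1 barcode or differed in the same direction outside mast cells.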

How the data were processed

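The deposited matrices hold UMI counts of 31053 genes in each barcode, as unscaled whole numbers, per the file headers. The submitters' processing notes name Cell Ranger 3.0.2, Seurat 3.0 and the build mm10, and the matrices carry software version 3.1.0 in their own headers. Aligner settings, the library chemistry and the barcodes left out before deposit are not given in the sources used here.

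Kept barcodes had at least 500 UMIs and 200 genes, and no more than 10% of UMIs from mitochondrial genes. The members and the gene lists were chosen with earlier results of these data known, and the marker-rich limit, the core cells and the gene pairs after the data were seen. Counts were summed per library over mast cells and scaled to CPM over the mast cell UMIs of the library. KO over WT ratios have exact intervals conditional on the summed count, shares have Clopper-Pearson intervals and sums Poisson intervals, at 95%, for counting error only. A gene at 0 in a library was set against 3 counts. Genes with at least 20 UMIs in both libraries together were measured, and higher or lower means past 2-fold.

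The genes named were a fixed set of mast cell genes, the first 15 by height over all other barcodes, the first 12 each way by KO over WT among genes with at least 30 UMIs and 100 CPM in the higher library, no lower there than in all other barcodes, and the first 5 each way without that comparison. From each list the most abundant member by CPM and those with the largest ratios were added, and other list members are given as examples chosen after their values were seen. Mitochondrial, ribosomal, haemoglobin, receptor-segment and unnamed genes, Xist and Y-linked genes were left out of the ranking. Only part of the genes so named are described.

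Barcodes were thinned to 1000 UMIs only where the text says so, and all other shares of cells with a UMI are not matched for depth. The macrophage gate took barcodes with C1qa, C1qb, C1qc, Pf4 and Mrc1 at 0.3% of UMIs or more, few collagen transcripts and the same keratin limit. The T cell gate took barcodes with at least 3 UMIs of Cd3d, Cd3e, Cd3g, Trdc and Trac together, under the same collagen and keratin limits. Gene positions are from GENCODE on mm10. The calculation was tested on simulated counts. Python 3.11.15, numpy 2.4.6, scipy 1.17.1, pandas 2.3.3 and matplotlib 3.10.9 were used.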

Additional observations from a re-analysis of the deposited data

Results flagged for a closer look

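The keratin limit of the rule left out 31 WT barcodes that met the protease criterion, against 1 KO barcode. The 31 WT barcodes held 248 UMIs of the 4 proteases, and 12 of them carried a UMI of one of the 8 further mast cell genes. They are counted in the share without the keratin limit and among all other barcodes, and what they are was not tested.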

How the results depend on the processing

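No paired analysis was possible because each genotype has 1 library. Depth limits most single genes, since a mast cell held 1441.5 UMIs in KO and 1649 UMIs in WT at the median. KO mast cells were 0.430% of kept barcodes with at least 10 protease UMIs, 0.406% with at least 1000 UMIs, 0.271% thinned, 2.33% among Ptprc-positive and 0.450% as marker-rich. WT mast cells were 0.380% with at least 10 protease UMIs, 0.524% with at least 3 of 4 proteases, 0.918% without the keratin limit, 0.327% thinned, 1.56% among Ptprc-positive and 0.366% as marker-rich. Against 323 genes higher and 264 lower in KO, thinning left 113 and 113, a minimum of 50 UMIs 114 and 89, a minimum of 1 UMI 1473 and 1134, and core cells 143 and 100. Median-ratio scaling gave 275 and 312, a mean over cells 399 and 499, and the limit of 10 protease UMIs 236 and 153. Of 1031 ratios of named genes, 811 stayed within the counting interval of the value over all mast cells, 200 moved outside it and 20 turned direction. Some settings could hardly move a ratio. Leaving out cells with a UMI of Mcpt8 or Prss34 removed 0 cells. Median-ratio scaling and totals without the 4 proteases rescale all genes alike. Each of these settings gave 104 of the 811. In core cells 47 ratios stayed, 49 moved and 5 turned. With at least 10 protease UMIs the ratio was 0.554 for Cd74, 1.11 for Wfdc18, 0.772 for Hes1 and 0.443 for Birc3. Without cells of other lineages it was 1.05 for Spi1, and thinned 1.14 for Aldh3a1 and 1.42 for Cxcl10. In marker-rich cells it was 0.473 for Scd1, 0.433 for Acbd6, 0.826 for Cd74, 1.51 for Wfdc18, 1.14 for Serpine2, 0.699 for Birc3 and 1.93 for Hspb1. Without the deepest cell it was 0.729 for Idi1, and the chemokine median was 0.10. In core cells it was 0.709 for Scd1, 0.993 for Acbd6 and Idi1, 0.497 for Birc3 and 1.32 for Hspb1. The 0.5% limit, the deepest-cell and core-cell settings were chosen after seeing the data. The cause of these changes was not tested.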
